A study of Mus musculus with 4 samples.

Results

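Mutually exclusive exons are neighboring exons of which a mature transcript carries one and not the other, so that a protein keeps its length and frame while one stretch of it is exchanged. They are found in dynamins, tropomyosins, glutamate receptors, calcium and sodium channels and stress-activated kinases, where the exchanged stretch sets membrane traffic, actin binding, desensitization or gating. The PTB proteins bind pyrimidine-rich sequence beside exons and often repress them. PTBP1 is made in neural progenitors and other cells, and PTBP2 replaces it in young neurons.

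In the tables of exon trios studied here, a trio is an exon with its neighbor on either side, and 3 junctions per trio carry read counts. A pair was taken as mutually exclusive where 2 trios labelled CA-CA or CA-CS in the authors' exon database had the same outer exons on the same strand and middle exons that did not overlap, and no trio listed those middle exons as neighbors. Of 228333 trios, 218362 carried these labels. They gave 506 pairs with shared outer exons, of which 312 were left once neighbors had been removed. Of the 312, 209 had 20 or more inclusion reads, summed over both exons, in both libraries of a stage. The inclusion reads of an exon are the mean of the reads on its upstream and downstream junctions. These 209 pairs had 191 distinct combinations of middle exons and lay in 162 named genes; 182 were measured at E18, 192 at P1 and 165 at both. Just inside the minimum were pairs of *Cacnb2* and *Zfp280d*, with 20 reads in the lower library of their better stage, and just outside it were pairs of *Mctp1*, *Zmym5* and *Arhgap4*, with 19.5. Throughout, the first exon is the one nearer the transcript's 5′ end, and its share is its inclusion reads over those of both exons.

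The 4 libraries were from mice on a mixed background, which the labels spell C56Bl/6:129S2, and in the knockouts exon 4 of *Ptbp2* was flanked by loxP sites. NesKO, in which nestin-Cre deletes the exon in neural progenitors and their descendants, was compared with wild type in whole brain at embryonic day 18 (E18), and each of these libraries pooled 2 brains. EmxKO, in which Emx1-Cre deletes it in the dorsal forebrain lineage and leaves other cells of the cortex untouched, was compared with wild type in cortex at postnatal day 1 (P1), with 1 library each. The wild-type animals were littermates, and their own Cre and loxP alleles are not given in the sources used here. With 1 library in each group, every test below compares the reads of 2 libraries and not conditions, and no spread between animals is known. E18 and P1 also differed in tissue, Cre line and library protocol (not strand specific at E18, strand specific at P1), so age and these factors cannot be told apart.

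The libraries held 49445721 (NesKO) and 51267564 (wild type) reads on distinct junctions at E18 and 84793098 (EmxKO) and 85073560 (wild type) at P1. Reads skipping *Ptbp2* exon 4 (chr3:119455862-119456034, mm9) were 100% of the total (95% Wilson interval 98.5 to 100) in NesKO brain against 0.225% (0.0398 to 1.26) in the E18 wild type. At P1 they made up 82.6% (79.9 to 85.1) in the EmxKO and 31.5% (29.5 to 33.7) in the library labelled wild type, so the 2 P1 libraries were less far apart in the targeted exon than the 2 E18 libraries; the part of this in the P1 results was not tested. Neuronal markers (5 of 5 measured) summed to 1579 (NesKO) and 1922 (E18 wild type) against 2299 (EmxKO) and 2243 (P1 wild type), in RPM, reads scaled to the total of junction reads of each library. The P1 sums were near-equal, but single markers differed in opposite directions: *Tubb3* had 1496 in EmxKO cortex against 1189 in wild type, *Map2* had 362 against 626, and *Snap25*, of the synaptic vesicle machinery, had 63.0 against 124. *Syn1* had 236 in EmxKO cortex against 155 in wild type, and *Syt1* had 141 against 149. At E18 *Snap25* had 88.3 in NesKO brain against 189 in wild type, and *Syt1* had 84.4 against 186. *Syn1* had 194 against 191 in these E18 libraries, *Tubb3* had 944 against 973 and *Map2* had 269 against 384. *Ptbp1* had 121 in EmxKO cortex against 279 in P1 wild type, and 123 in NesKO brain against 97.6 in E18 wild type. The 3 markers of meninges and fibroblasts summed to 723 and 732 at E18 against 16.6 and 11.9 at P1. *Ttr*, the marker of choroid plexus, stood at 1714 in the NesKO, 982 in the E18 wild type, and 0.295 and 0.0470 in the EmxKO and P1 wild type. *Hoxb3*, a hindbrain marker, was at 0 in both P1 libraries, but it was also low at E18 (NesKO 0.930, wild type 2.63). *Tcf7l2*, the other measured marker of brain regions outside the cortex, was lower at P1 but not 0 (EmxKO 3.37, wild type 3.90). Its E18 values were 127 (NesKO) and 157 (wild type). The part of these cell types and of *Ptbp1* in the shares below was not tested.

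The sequences of the pairs that carried the results show what is exchanged. Each was read from the transcripts of GENCODE mouse release 21 on GRCm38, at an exon with the same length between introns of the same lengths. In the first 4 sets the exons of a pair are equally long, and capitals mark the bases at which they differ when laid side by side without gaps. The exons of *Dnm1* lie at chr2:32334682-32334820 and chr2:32333066-32333204 on the minus strand, are both coding, and differ at 39 of 139 bases.
*Dnm1* first exon: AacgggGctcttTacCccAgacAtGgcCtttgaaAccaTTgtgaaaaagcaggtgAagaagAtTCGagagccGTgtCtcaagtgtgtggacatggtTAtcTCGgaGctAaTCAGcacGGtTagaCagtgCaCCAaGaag
*Dnm1* second exon: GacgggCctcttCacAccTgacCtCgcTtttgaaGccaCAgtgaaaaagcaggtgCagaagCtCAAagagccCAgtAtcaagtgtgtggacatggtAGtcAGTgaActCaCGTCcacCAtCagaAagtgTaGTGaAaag
*Dnm2*, the widely expressed dynamin, has a pair of the same length (chr9:21478899-21479037 and chr9:21480407-21480545, plus strand) that differs at 44 bases.
*Dnm2* first exon: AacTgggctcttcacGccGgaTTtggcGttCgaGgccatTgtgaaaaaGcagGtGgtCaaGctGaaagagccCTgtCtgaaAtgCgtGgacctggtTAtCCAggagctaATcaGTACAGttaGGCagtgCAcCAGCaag
*Dnm2* second exon: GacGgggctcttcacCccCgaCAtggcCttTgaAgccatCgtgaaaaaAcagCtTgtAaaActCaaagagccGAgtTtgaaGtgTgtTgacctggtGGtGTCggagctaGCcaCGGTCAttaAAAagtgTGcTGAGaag
The pair of *Tpm3*, a tropomyosin gene, lies at chr3:90088401-90088476 and chr3:90089048-90089123 on the plus strand and differs at 37 of 76 bases.
*Tpm3* first exon: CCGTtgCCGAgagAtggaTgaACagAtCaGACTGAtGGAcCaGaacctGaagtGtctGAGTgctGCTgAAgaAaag
*Tpm3* second exon: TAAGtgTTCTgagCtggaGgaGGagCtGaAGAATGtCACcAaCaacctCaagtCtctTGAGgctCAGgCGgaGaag
*Tpm1* has a 76-nt pair of its own (chr9:67032466-67032541 and chr9:67031951-67032026, minus strand) that differs at 33 bases.
*Tpm1* first exon: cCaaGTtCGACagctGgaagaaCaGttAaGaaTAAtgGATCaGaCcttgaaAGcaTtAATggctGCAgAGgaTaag
*Tpm1* second exon: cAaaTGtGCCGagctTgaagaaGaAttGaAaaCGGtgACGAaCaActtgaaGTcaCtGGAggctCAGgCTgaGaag
The exons of *Actn1* (chr12:80170686-80170766 and chr12:80170183-80170248, minus strand), which encodes the actin crosslinker α-actinin 1, are 81 and 66 nt long and are printed without capitals.
*Actn1* first exon: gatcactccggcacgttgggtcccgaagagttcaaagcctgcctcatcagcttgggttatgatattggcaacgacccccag
*Actn1* second exon: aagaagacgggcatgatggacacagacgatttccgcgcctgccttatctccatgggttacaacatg

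The exons matched their counterparts in the related gene best. An exception was the second exon of *Dnm2*, which matched both exons of *Dnm1* equally. The first exon of *Dnm1* matched the first exon of *Dnm2* at 110 of 139 bases and the second at 101, and the second exon of *Dnm1* matched these at 93 and 101. In the tropomyosins, the second exons of *Tpm3* and *Tpm1* matched at 57 of 76 bases and the first exons at 50, whereas the crosswise matches were 36 and 41. In the flip and flop pairs of the AMPA receptor genes *Gria1* and *Gria4*, the first exons matched at 101 of 115 bases and the second exons at 102. The crosswise matches were 78 and 84. These counts are descriptions of sequence and used no reads.

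The pairs are described here by structure and by database label. How the database assigned its labels was not examined, so a difference in skipping between them may restate the label. Counted once per combination of middle exons, 39 of 191 pairs (20.4%) had exons of equal length, and 124 (64.9%) had lengths with the same remainder on division by 3, so that the exchange keeps the reading frame where both are coding. Both exons were multiples of 3 in 65. Of the 71 CA-CS pairs, 31 were of equal length and 63 had the same remainder, against 8 and 61 of the 120 CA-CA pairs. Reads that joined the outer exons, and so skipped both exons of the pair, had a median of 0.471% of all reads of a pair over the 4 libraries in CA-CS pairs and 38.8% in CA-CA pairs. Skipping was at most 10% in 36 of the 39 equal-length pairs and over 50% in none of them, while 54 CA-CA pairs skipped both exons more than 50% of the time. In the latter, the 2 exons are alternatives to each other only within the minority of transcripts that carry either. The exons of a pair were a median of 1415 nt apart, and 24 pairs were less than 100 nt apart. Among the 35 equal-length pairs with sequence, the exons were identical at a median of 59.9% of bases without gaps, from 34.6% in *Ints10* to 79.3% in the sodium channel gene *Scn8a*.

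**Figure D1:**
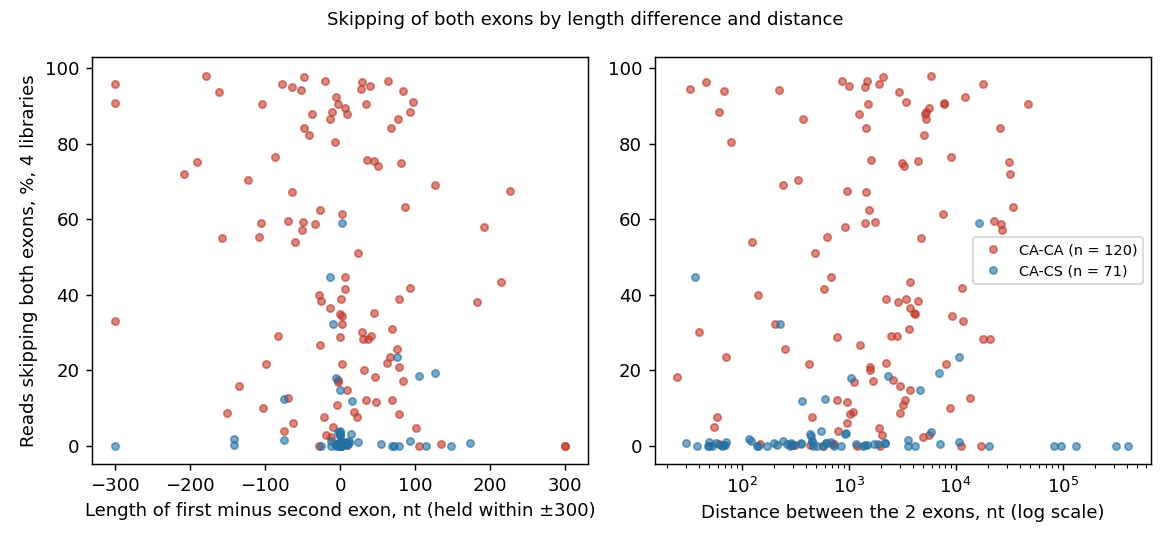
Reads skipping both exons, in percent of all reads of a pair summed over 4 libraries, against the length difference of the exons (left, nt) and the distance between them (right, nt, log scale), with 1 point per pair for 120 CA-CA pairs (red) and 71 CA-CS pairs (blue). CA-CS pairs lie mostly near 0, with a median of 0.471%, and CA-CA pairs spread over the whole range, with a median of 38.8%.

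In the wild type the choice was often one-sided. At E18 the share of the first exon was over 90% in 37 of 168 distinct pairs, under 10% in 36 and between 40% and 60% in 21. In P1 wild type it was over 90% in 44 of 177, under 10% in 28 and between 40% and 60% in 21. The median pair had 116 inclusion reads in the E18 wild type and 178 in the P1 wild type, where 3 reads, the smallest number taken as visible, are a share of 2.60% and 1.69%. These limits and all intervals cover counting error only.

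At E18, 4 of the 182 pairs were called different between NesKO and wild type, and in all 4 the share of the first exon fell. A share within a pair does not take in the reads that skip both exons. They were the pairs of *Dnm1*, *Tpm3*, *Actn1* and *Adgrb2*. A pair was called changed at a difference of 10 percentage points and an adjusted p under 0.05 in Fisher's exact test (two-sided) on the rounded inclusion reads, with adjustment by Benjamini-Hochberg over all pairs and all cassette exons of the stage. The 4 are 2.2% of the pairs, beside 2.95% of 6748 cassette exons (199) called by the same limits. The cassette exons needed 20 reads over their 3 junctions, a looser minimum than that of the pairs, and they take in exons of the CA-CA pairs. With 4 calls, the 2 percentages are set side by side as a description only. The median absolute difference was 2.92 points in pairs and 1.81 in cassette exons. A further 20 pairs differed by 10 points or more without passing the test, and their median was 47.5 inclusion reads per library.

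At P1, 9 of 192 pairs were called in the EmxKO, with the share of the first exon lower in 7 and higher in 2. This is 4.69%, beside 3.76% of 6940 cassette exons (261). *Dnm1*, *Tpm3* and *Actn1* were called again, in the same direction as at E18, and *Enah*, *Kif21a*, *Tmem234*, *Cadm1*, *Ubox5* and *Phf21a* were called at P1. Another 20 pairs differed by 10 points or more without passing the test. Among the 85 pairs with at most 10% skipping of both exons in both P1 libraries, 4 were called.

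**Figure D2:**
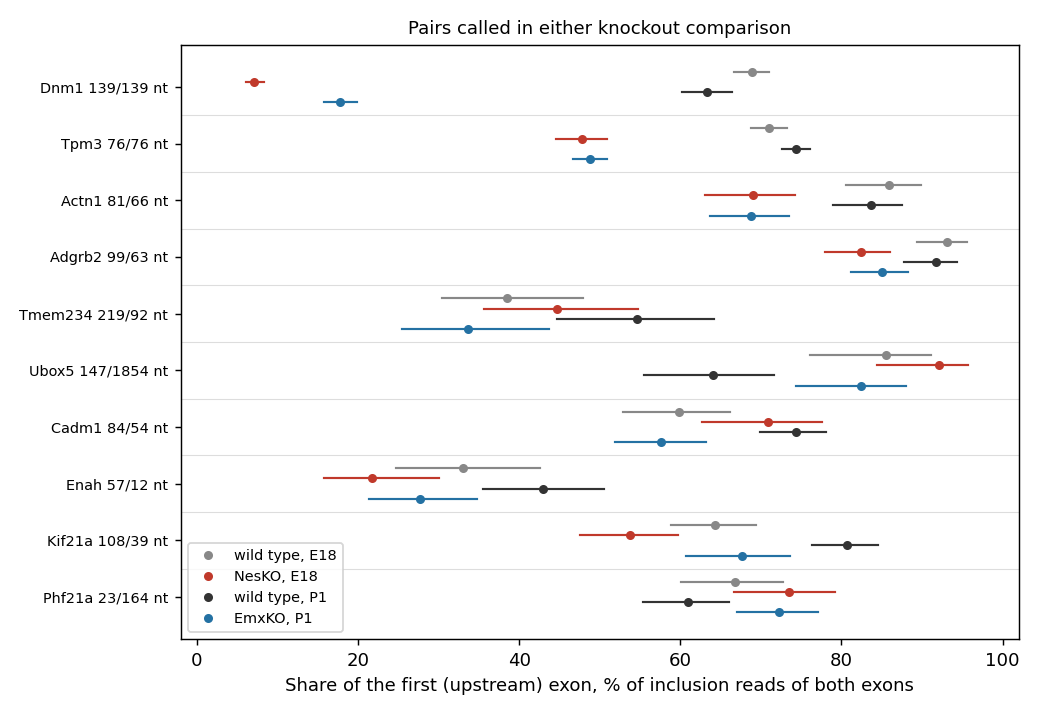
Share of the first exon, in percent of the inclusion reads of both exons, for the 10 pairs called in either knockout comparison, labelled with the lengths of the first and second exon. Points are single libraries and bars are 95% Wilson intervals, which cover counting error only; the knockout points of *Dnm1* sit at 7.11% and 17.8%, far from the wild-type points at 68.9% and 63.4%.

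The largest difference was in *Dnm1*, which encodes the dynamin that severs synaptic vesicles from the plasma membrane. Its 139-nt exons, known as 9a and 9b, occupy chr2:32190202-32190340 and chr2:32188586-32188724 in mm9, and the study calls the downstream one 9a. In the E18 wild type the first exon had 1198.5 inclusion reads and the second 541.5, a share of 68.9% (95% Wilson interval 66.7 to 71.0). In the NesKO they had 135.5 and 1770, and the share was 7.11% (6.06 to 8.38). At P1 it was 63.4% (60.2 to 66.4) in the wild type and 17.8% (15.8 to 19.9) in the EmxKO. Both knockouts thus carried mainly the second exon and both wild types mainly the first, and no intervals overlapped between genotypes. The share fell by 61.8 points at E18, with an adjusted p below the smallest number the Fisher's exact calculation can hold, and by 45.6 points at P1 (adjusted p = 1.26e-108). The odds of the first exon in the knockout over those in the wild type were 0.0347 at E18 and 0.125 at P1, and this ratio differed between the stages (Wald chi-square test on the log odds ratios, adjusted p = 2.38e-16). Reads joining the outer exons numbered at most 3 in any library. A second *Dnm1* pair, of 37 and 135 nt near the 3′ end of the gene and partly coding, stood at 83.9% and 82.9% in E18 wild type and NesKO and at 83.8% and 82.8% in P1 wild type and EmxKO, with overlapping intervals. The pair of *Dnm2* stood at 16.7% (13.2 to 21) in the E18 wild type and 18.0% (14.5 to 22.5) in the NesKO, and at 6.05% (4.25 to 8.56) and 5.33% (3.64 to 7.75) in P1 wild type and EmxKO. Neither pair was called in a knockout comparison.

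In *Tpm3*, whose tropomyosin runs along actin filaments, the 76-nt exons at chr3:89892323-89892398 and chr3:89892970-89893045 (mm9) changed by much the same amount at both stages. The first exon held 71.1% (68.7 to 73.3) in the E18 wild type and 47.7% (44.6 to 50.9) in the NesKO. It held 74.4% (72.6 to 76.1) in the P1 wild type and 48.8% (46.7 to 50.9) in the EmxKO. The knockouts lay close to an even split and the wild types well above it, with no overlap. The drops of 23.3 and 25.6 points passed Fisher's exact test (adjusted p = 7.41e-29 and 2.39e-68). No difference between the stages was found by the Wald chi-square test (adjusted p = 0.936), with odds ratios of 0.372 and 0.328. The corresponding pair of *Tpm1* gave 6.43% and 4.91% in E18 wild type and NesKO and 6.09% and 3.40% at P1, and its other pair, of 126 nt, stayed between 4.31% and 6.02% in the 4 libraries. The *Tpm2* pair was measured only at E18, with intervals of 9.66% to 41.9% in the wild type and 11.5% to 43.4% in the NesKO. None of these 3 pairs was called.

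The *Actn1* exons at chr12:81271673-81271753 and chr12:81271170-81271235 (mm9) lie in the calcium-binding region of α-actinin 1. The first exon held 85.8% (80.5 to 89.9) and 69.0% (63.1 to 74.3) in E18 wild type and NesKO and 83.7% (78.9 to 87.5) and 68.7% (63.7 to 73.4) in P1 wild type and EmxKO. Its share fell by 16.9 points at E18 and by 14.9 at P1 (Fisher's exact test, adjusted p = 0.000799 and 0.000441). The call and its size depended on the junction. On the upstream junctions alone the share differed by -4.28 points at E18 (Fisher's exact test, adjusted p = 0.574) and -4.13 at P1 (adjusted p = 0.219), and on the downstream ones by -30.8 and -30.6. The second exon had 8 to 29 reads per library on its upstream junction and 52 to 187 on its downstream junction.

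*Adgrb2* encodes an adhesion G protein-coupled receptor of the brain. Its exons of 99 and 63 nt at chr4:129692179-129692277 and chr4:129693878-129693940 (mm9) were mostly both skipped: 85.5% of the reads of the pair skipped them in the E18 wild type and 77.3% in the NesKO. Within the remainder, the first exon held 93.1% (89.4 to 95.6) in the wild type and 82.4% (78.0 to 86.0) in the NesKO, a fall of 10.7 points (Fisher's exact test, adjusted p = 0.00321). On the upstream junctions alone it was -8.39 points, under the limit of 10. At P1 the values were 91.8% and 85.1% and were not called (exact test, adjusted p = 0.112).

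Of the 6 pairs called at P1 and not at E18, *Cadm1* alone differed between the stages by the test of that difference. *Cadm1* encodes a synaptic adhesion molecule. The first of its exons (84 and 54 nt) held 74.3% (69.9 to 78.1) in the P1 wild type and 57.7% (51.9 to 63.1) in the EmxKO (Fisher's exact test, adjusted p = 9.47e-05), against 59.9% (52.9 to 66.2) and 70.9% (62.7 to 77.6) in E18 wild type and NesKO. The sign thus differed between the stages, and the odds ratios of 0.471 at P1 and 1.62 at E18 differed by the Wald chi-square test (adjusted p = 0.0018). Its 2 junctions were unequal (567 upstream and 79 downstream reads for the first exon in the P1 wild type), and on the upstream junctions alone the P1 difference was -9.64 points. A junction joining its 2 exons is listed, with 0 reads in every library.

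*Kif21a*, a kinesin gene, had 80.7% (76.3 to 84.5) of its inclusion reads on the 108-nt first exon in the P1 wild type and 67.6% (60.7 to 73.7) in the EmxKO (Fisher's exact test, adjusted p = 0.0134). At E18 the values were 64.3% and 53.7%, which was not called (exact test, adjusted p = 0.178), though on the upstream junctions alone the E18 difference was -12.3 points and passed (exact test, adjusted p = 0.0347). Its exons were joined to each other by 2 to 7 reads per library, so they are not strictly exclusive, and on the downstream junctions alone the P1 difference was -9.59 points. *Ubox5*, a ubiquitin ligase gene, was higher in the EmxKO (82.5%, 74.3 to 88.1) than in the P1 wild type (64.0%, 55.5 to 71.6; Fisher's exact test, adjusted p = 0.0245). Between 3 and 30 reads per library joined its exons of 147 and 1854 nt, and on the downstream junctions alone the difference was 11.8 points with an adjusted p of 0.378 by Fisher's exact test.

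In *Enah*, which encodes a regulator of actin filament growth, the 57-nt first exon held 43.0% (35.5 to 50.6) in the P1 wild type and 27.6% (21.3 to 34.8) in the EmxKO, against the 12-nt second exon (Fisher's exact test, adjusted p = 0.0474). The E18 values of 33.0% and 21.7% were not called (exact test, adjusted p = 0.53). Over the 4 libraries, 75.5% of the reads of the *Enah* pair skipped both exons, so these shares describe the remainder. *Tmem234*, a transmembrane protein gene, gave 54.6% (44.7 to 64.2) and 33.7% (25.5 to 43.7) at P1 (Fisher's exact test, adjusted p = 0.0495). Its E18 values of 38.5% and 44.7% in wild type and NesKO differed the other way by 6.20 points and were not called (exact test, adjusted p = 1). The odds ratios of 1.29 at E18 and 0.425 at P1 did not pass the Wald chi-square test of the stage difference (adjusted p = 0.192). *Phf21a*, whose product binds unmethylated histone H3, gave 60.9% (55.4 to 66.1) in the P1 wild type and 72.3% (67.0 to 77.1) in the EmxKO for its 23-nt exon against a 164-nt one (Fisher's exact test, adjusted p = 0.0364). Each of these 3 calls was lost on 1 of its junctions and kept on the other. *Enah* and *Phf21a* were lost on the upstream junctions (-7.71 and 8.28 points) and kept on the downstream ones (-12.0 and 13.5). *Tmem234* was lost on the downstream junctions (-11.5 points, Fisher's exact test, adjusted p = 0.621) and kept on the upstream ones (-22.3).

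Set side by side, the 154 distinct pairs measured at both stages gave differences with the same sign in 84. The differences correlated across pairs with Pearson r = 0.54 and Spearman rho = 0.29, or 0.34 and 0.27 without the *Dnm1* pair, and 0.22 and 0.23 without the 4 pairs called at E18. The 2 comparisons share no library, but pairs are not replicates, some share a gene, and the values are given as a description.

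**Figure D3:**
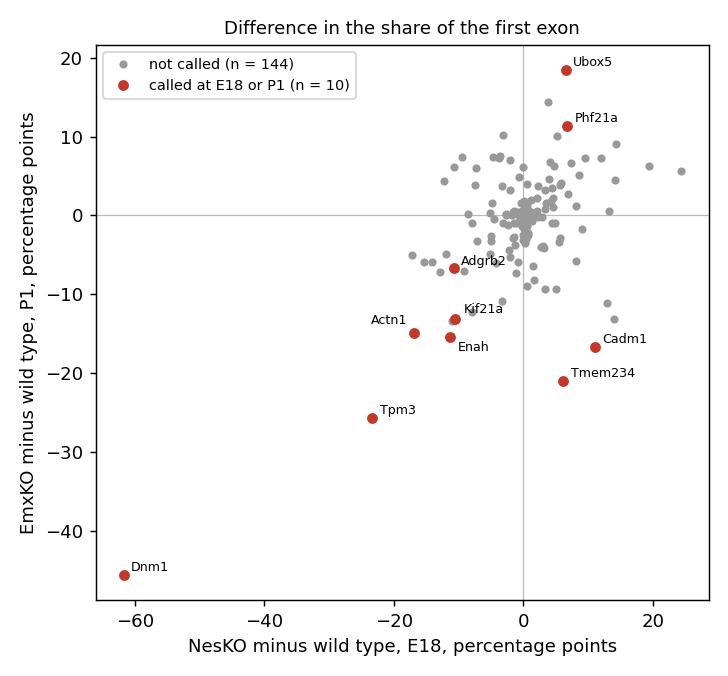
Difference in the share of the first exon between knockout and wild type, in percentage points, at E18 (x axis) and P1 (y axis), with 1 point per pair for 154 pairs; the 10 pairs called at either stage are red and named. *Dnm1* (-61.8 and -45.6) and *Tpm3* (-23.3 and -25.6) lie far from the cloud around 0, and *Cadm1* has opposite signs.

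Genes with textbook mutually exclusive exons were listed together with names in older use, 61 names in all, and 26 of them had a kept pair, with 33 distinct pairs. Of the 32 measured in each knockout comparison, the pairs of *Dnm1*, *Tpm3* and *Actn1* were called and the share of the first exon fell in each of them. The other 29 were not called. Over all pairs measured, 2.2% were called at E18 and 4.69% at P1. The median absolute difference over the list was 3.42 points at E18 and 1.68 at P1, beside 2.92 and 3.35 over all pairs.

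Receptors and ion channels gave 9 pairs in 5 genes at E18 and 10 in 6 genes at P1, and none was called in a knockout comparison. With 2.2% and 4.69% of all pairs called, no call among so few pairs is not a result about this group, and the same holds for the 2 groups that follow. Flip and flop exons decide how fast AMPA receptors desensitize, and which exon of a pair is flip was not assigned here. In *Gria1* the first exon held 26.2% (23.2 to 29.4) in the E18 wild type and 21.6% (18.5 to 25.3) in the NesKO. It held 15.4% (13.5 to 17.4) and 14.9% (13.2 to 16.9) in P1 wild type and EmxKO. In *Gria4* the 4 values were 37.8%, 39.4%, 37.7% and 29.5%, with overlapping intervals. In *Scn8a*, a sodium channel of the axon initial segment, the first 92-nt exon held 30.8% (24.3 to 38.6) and 39.4% (32.0 to 47.7) in E18 wild type and NesKO and 39.8% and 44.9% at P1. The *Scn8a* values depended on the junction: on the upstream junctions alone the E18 difference was 19.9 points, past both limits (Fisher's exact test, adjusted p = 0.0134), and on the downstream ones it was -4.02 points.

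The calcium channel genes *Cacna1c* and *Cacna1d* held 6 of these pairs. In *Cacna1c* the first exon was dominant in the 104-nt pair, at 89.6% to 93.2% in the 4 libraries, and rare in the 60-nt pair, at 6.77% to 10.2%. In its 84-nt pair the first exon held 29.2% (22.1 to 38.1) in the E18 wild type, 15.2% (10.1 to 22.9) in the NesKO, 26.3% in the P1 wild type and 20.4% in the EmxKO. This E18 difference of -14.1 points did not pass Fisher's exact test (adjusted p = 0.146). A further *Cacna1c* pair shares the first of these exons and a 78-nt form of the second, so it is not independent, and gave 32.3% and 17.0% at E18. In *Cacna1d*, the 104-nt pair gave 59.1% (50.7 to 66.8) and 73.2% (65.3 to 80.1) in E18 wild type and NesKO and 74.4% and 78.9% at P1. The *Kcnma1* pair of a potassium channel was measured at P1, with 97.8% in the wild type and 95.5% in the EmxKO.

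Kinases and growth factor receptors gave 7 pairs in 7 genes, and all lay within 5.03 points at E18 and 2.55 at P1. The Jun kinases *Mapk8*, *Mapk9* and *Mapk10* each carry a 72-nt pair that shapes substrate binding. The first exon held 89.8% in *Mapk8*, 61.0% in *Mapk9* and 94.9% in *Mapk10* in the E18 wild type, against 86.7%, 63.1% and 93.7% in the NesKO. In the p38 kinase *Mapk14* it held 29.1% (22.6 to 36.6) and 24.1% (17.9 to 31.4) in these libraries. *Fyn*, a Src family kinase, used its first exon at 91.5% to 93.7% in the 4 libraries. *Fgfr3*, whose pair sets ligand choice, used the first exon at 4.72% to 9.59%.

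Transcription and chromatin genes gave 6 pairs in 5 genes with no call. The pairs of *Mef2a*, *Mef2c* and *Mef2d*, which encode muscle and neuronal transcription factors, stood at 66.3%, 97.2% and 98.4% in the E18 wild type. The *Mef2c* trios matched no annotated exon by length and took their name from lying within the trios of that gene. *Tcf3*, the E protein gene, had 2 pairs that share the first exon, at 71.9% and 63.7% in the E18 wild type and 76.4% and 68.2% in the NesKO. *H2afy*, the gene of macroH2A1, stood at 91.2% and 92.3% in E18 wild type and NesKO and 90.3% and 92.2% at P1. In *Slc39a14*, a metal ion transporter gene, the first exon held 17.8% (11 to 27.1) and 17.9% (11.3 to 28.6) in P1 wild type and EmxKO. *Rab6a*, of Golgi traffic, stood at 12.1% (10.4 to 14.1) and 15.4% (13 to 18.2) in E18 wild type and NesKO.

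**Figure D4:**
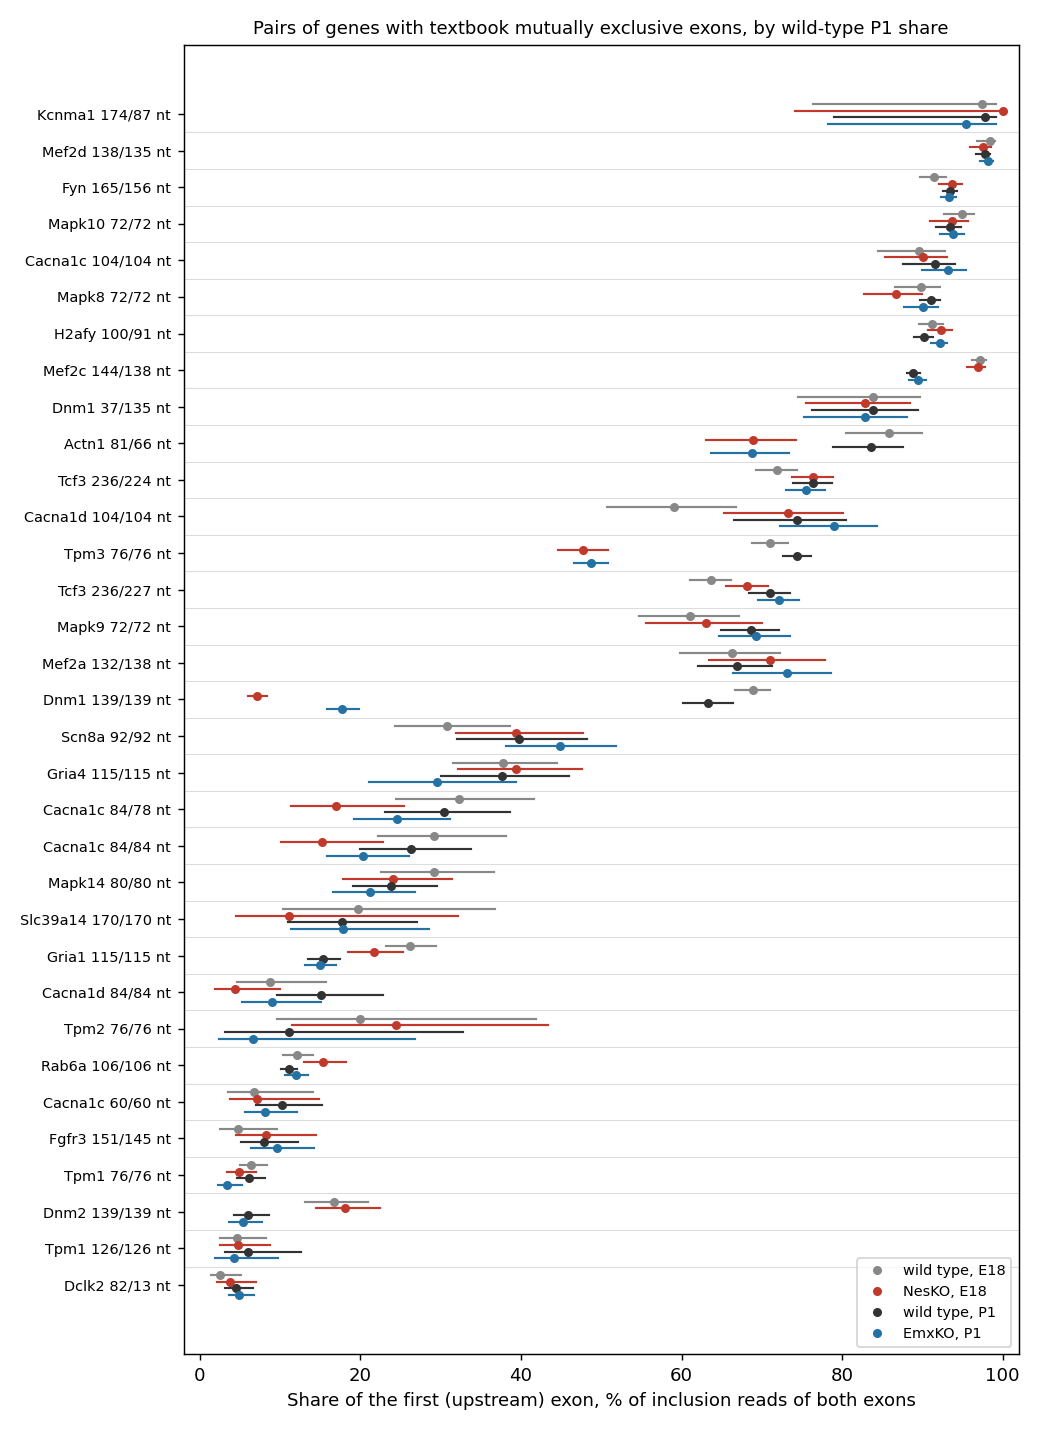
Share of the first exon, in percent of the inclusion reads of both exons, for 33 pairs in 26 genes with textbook mutually exclusive exons, ordered by the share in the P1 wild type and labelled with both exon lengths. Points are single libraries and bars 95% Wilson intervals; the knockouts were called different from wild type in *Dnm1* (139/139 nt), *Tpm3* and *Actn1*, and the *Kcnma1* and *Tpm2* pairs passed the reads minimum at 1 stage.

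Between the wild-type libraries, P1 cortex against E18 whole brain, 27 of 178 pairs were called, or 15.2%. The share of the first exon was higher in 13 and lower in 14. Of 6726 cassette exons, 818 (12.2%) were called. The median absolute difference was 4.09 points in pairs and 2.78 in cassette exons. This comparison shares a library with each knockout comparison, and its stage, tissue and library protocol cannot be told apart. With the pairs counted once per combination of middle exons, 26 were called.

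Among synaptic and signaling genes, *Adam23*, which encodes a cell-surface partner of the LGI proteins, went from 67.6% (60.2 to 73.9) at E18 to 39.1% (32.1 to 46.7) at P1 in its 91-nt pair (Fisher's exact test, adjusted p = 2.95e-06). *Oprl1*, the nociceptin receptor gene, had 2 pairs that share a 34-nt first exon, whose share fell by 43.0 points against the 98-nt form of the second exon (to 17.0%, Fisher's exact test, adjusted p = 2.66e-10) and by 36.2 against the 139-nt form. *Gria1* fell by 10.8 points (Fisher's exact test, adjusted p = 6.26e-08), and *Dnm2* fell by 10.7 (adjusted p = 2.34e-05), each from the values given above. The 104-nt pair of *Cacna1d* rose by 15.3 points (Fisher's exact test, adjusted p = 0.0421). *Cyfip1*, whose product binds FMRP and the WAVE complex, rose from 44.4% (37.6 to 51.4) to 63.7% (59.6 to 67.6; Fisher's exact test, adjusted p = 4.4e-05), and *Gprasp1*, a receptor-sorting gene, fell from 91.1% to 73.0% in an untranslated pair (Fisher's exact test, adjusted p = 6.03e-05). The *Dnm1* 139-nt pair differed by -5.53 points, under the limit of 10.

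In other genes, *Eif4g3*, a translation factor, rose from 41.5% (30.3 to 53.0) to 76.9% (65.1 to 85.8; Fisher's exact test, adjusted p = 0.000432), and *Ints10*, an Integrator subunit, rose from 14.3% to 30.9% (Fisher's exact test, adjusted p = 3.9e-05). *Kif21a* rose by 16.4 points (Fisher's exact test, adjusted p = 2.93e-05) and *Ubox5* fell by 21.5 (adjusted p = 0.00491). *Serpinh1*, the collagen chaperone, went from 56.9% (40.8 to 72.8) to 9.30% (2.53 to 27.8; Fisher's exact test, adjusted p = 0.0038) on 32.5 and 21.5 inclusion reads, and 96.0% and 91.6% of the reads of the pair skipped both exons. Markers of meninges and fibroblasts, which make collagen, stood at the 732 and 11.9 given above in these libraries, and their part in this difference was not tested.

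**Figure D5:**
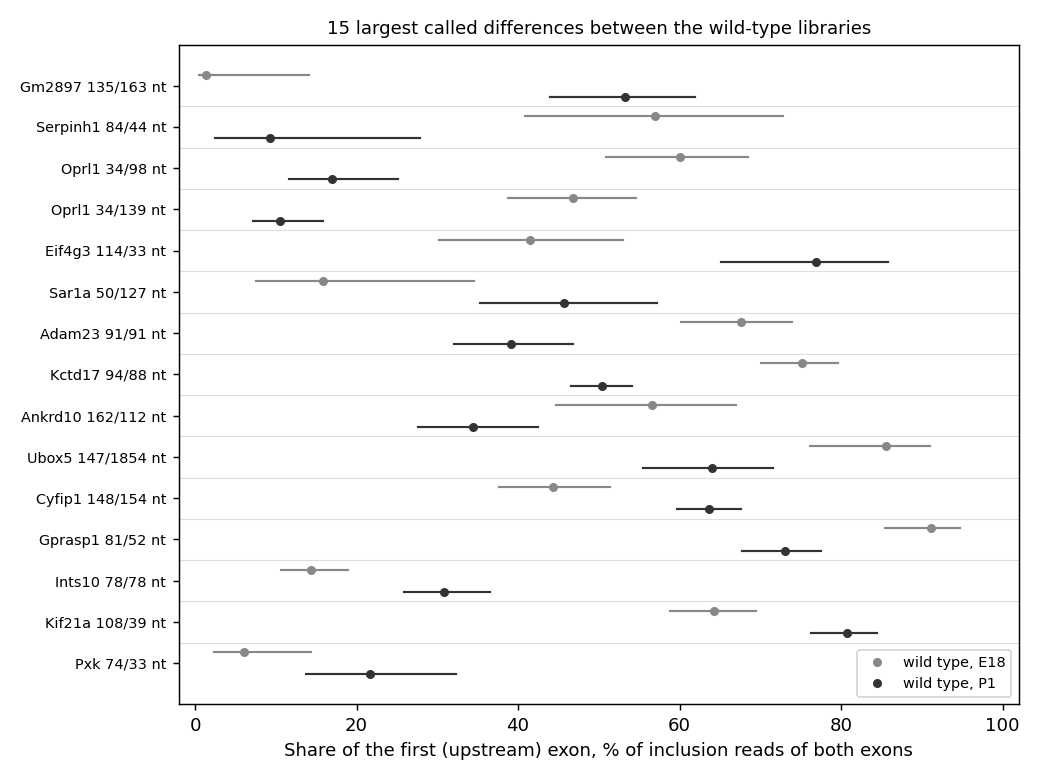
Share of the first exon, in percent of the inclusion reads of both exons, in the wild-type libraries at E18 (gray) and P1 (black) for the 15 pairs with the largest called differences, labelled with both exon lengths. Bars are 95% Wilson intervals; the first exon is higher at P1 in *Gm2897*, *Eif4g3*, *Sar1a*, *Cyfip1*, *Ints10*, *Kif21a* and *Pxk* and lower in the other 8.

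Some of these calls rest on 1 of the junctions. On the downstream junctions alone the differences of *Gria1* (-9.69 points), *Dnm2* (-8.93) and *Ints10* (8.53) lay just under the limit of 10, as did that of *Cyfip1* on the upstream ones (8.48). *Kctd17*, a potassium channel tetramerization domain gene, went from 75.2% (70.1 to 79.6) to 50.4% (46.6 to 54.2; Fisher's exact test, adjusted p = 2.8e-12), but its first exon had 0 and 3 reads on the downstream junction against 478 and 667 upstream, and the difference was -12.4 points on the upstream junctions alone and 0.752 on the downstream ones, so the value from both, -24.8, lies outside either. The falls of *Oprl1* also depended on the junction: against the 98-nt form the differences were -21.9 points upstream and -16.6 downstream, where both junctions gave -43.0, and against the 139-nt form -44.7 and -15.4, where both gave -36.2. *Sar1a* and *Ankrd10* (Fisher's exact test, adjusted p = 0.0371 and 0.0154) and *Pxk* (adjusted p = 0.0422) rested on low counts, with 28.5 inclusion reads for *Sar1a* in the E18 wild type. The largest difference, 51.9 points in *Gm2897* (1.41% to 53.3%), had 0 reads upstream and 1 downstream for the first exon at E18. Pairs in *Gm2897*, *Gm3173*, *Gm3020* and *Gm3667* lie in near-identical gene copies on chromosome 14, between which reads can be split, and their values are uncertain.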

How the data were processed

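RNAseq libraries of polyA+ RNA were sequenced by the authors on a HiSeq2000 as paired reads of 100 nt and placed with SpliceTrap on a database of exon trios. CASAVA, TopHat and Cufflinks and the build mm9 are named in the submitters' processing notes. In the deposited tables the junction reads are counts, whole and not normalized, and the inclusion ratio is a fraction between 0 and 1 that SpliceTrap corrected; the exon sizes are in bases. Coordinates, run together in the tables, were recovered from start and size.

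Pairs were found by the rule given above, and the mean of an exon's 2 junctions was rounded for two-sided Fisher's exact tests, with Benjamini-Hochberg adjustment over pairs and cassette exons (9319 in all, tested at 20 or more junction reads). Stages were compared by a Wald chi-square test on log odds ratios with 0.5 added to each count. Wilson intervals are at 95%. A junction shared by trios can carry slightly different counts in each, and skipping reads are the mean of both trios. PCR duplicates were not marked by molecular identifiers, so intervals, tests and limits cover counting error only.

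Genes were named by exon and intron lengths matched to GENCODE mouse release 21 on GRCm38, for 209930 of 228333 trios, by a shared exon for 15041, by 2 of 3 lengths for 117 and by position within 1 gene for 400. No coordinates were converted. Named pairs were those of a textbook list and up to 15 called pairs per comparison by size of difference, with 1 pair per combination of middle exons. The members, lists and tests were chosen with earlier results of these data known. Motifs beside the exons were not searched, since intron sequence was not used here. Alternatives were other minimums, each junction alone, other limits, subsets of pairs and the deposited ratios. The calculations, in Python 3.11.15 with numpy 2.4.6, pandas 2.3.3, scipy 1.17.1, Biopython 1.88 and matplotlib 3.10.9, were tested on simulated data. At E18, 35 of 40 pairs shifted by 40 points were called, with 0 false calls among the rest of the 186 pairs tested. The test of the stage difference found 22 of 36 shifted pairs (61.1%), with 0 false calls among the rest of the 168. The simulated reads had counting error only and no spread between animals, so the 0 false calls say nothing about that spread. Shifts smaller than 40 points were not simulated.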

Additional observations from a re-analysis of the deposited data

Results flagged for a closer look

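The difference between knockout and wild type itself differed between E18 whole brain and P1 cortex for 2 of 165 pairs by the Wald chi-square test on log odds ratios. On simulated data this test found 22 of 36 pairs shifted by 40 points, so a pair that did not pass is not shown to have stayed the same. In the 139-nt pair of *Dnm1* the odds ratio of the first exon was 0.0347 at E18 and 0.125 at P1 (chi-square test, adjusted p = 2.38e-16), with the same direction at both stages. In *Cadm1* it was 1.62 at E18 and 0.471 at P1 (chi-square test, adjusted p = 0.0018), in opposite directions. The E18 difference of *Cadm1* was not called, and its P1 difference on the upstream junctions alone was -9.64 points, under the limit of 10. The test compares reads of 4 single libraries, and the stages also differ in tissue, Cre line, protocol and the share of *Ptbp2* transcripts without exon 4 (100% against 0.225% at E18, 82.6% against 31.5% at P1), whose part was not tested.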

How the results depend on the processing

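The main calls were 4 at E18, 9 at P1, 27 between the wild types and 2 between the stages. They moved by more than 1.5 times under these alternatives. A limit of 20 points gave 2, 3 and 10 calls in the first 3 comparisons in that order, and 10 points with no test gave 24, 29 and 45. The deposited inclusion ratios with no test gave 21, 19 and 48, and with these 11 of 21 were higher at E18, beside 9 of 24 for 10 points with no test on the reads. CA-CA pairs alone gave 1 of 112 at E18 and 5 of 123 at P1. Pairs with at most 10% skipping gave 4 of 85 at P1 and 8 of 80 between the wild types. Keeping only exons whose 2 junctions agreed within 3 times, an alternative chosen after seeing the data, gave 4 of 74 at P1 and 12 of 68 between the wild types. At E18 it kept 75 pairs, with 3 called. The main calls were among 182, 192 and 178 pairs tested. These subsets hold fewer pairs, so their counts cannot be compared with the main ones without the number tested. The upstream junctions alone gave 4 pairs between the stages. They also gave 6 at E18, of which 3 were higher and 3 lower, and the downstream junctions gave 4, all lower. The 4 pairs called at E18 stayed negative on the upstream junctions (*Dnm1* -60.8 points, *Tpm3* -21.5, *Adgrb2* -8.39 and *Actn1* -4.28), and the 3 higher calls were of other pairs. Of 64 values for called differences on a single junction, 46 stayed called, 17 were lost and 1 changed sign, that of *Kctd17* between the wild types (0.752 points on the downstream junctions). The other alternatives, among them minimums of 10 and 50 reads, 1 pair per combination of middle exons and leaving out pairs with a listed joining junction or genes named Gm and a number (both also chosen after seeing the data), kept the counts within 1.5 times. The pairs past 10 points without a call had a median of 47.5 to 52.8 inclusion reads in the 3 comparisons and at most 311, 137 and 289; the part of depth in this was not tested. No paired analysis was possible because each group has 1 library.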
